A study of Homo sapiens with 38 samples.

Results

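The EZH2-directed degrader MS177 was set against its negative control MS177-N2 in BT-549 cells, an established triple-negative breast cancer line of mesenchymal type. The libraries compared were those the labels give as BT-549 treated with MS177 at 2.5 uM for 48 h (2 libraries), with MS177-N2 at 2.5 uM for 48 h (2 libraries), and with the vehicle, 0.125% DMSO, for 48 h (2 libraries). These are 6 of the 38 samples of the series, and 6 of its 10 BT-549 samples. All were grown in RPMI1640 with 10% fetal bovine serum, antibiotics and insulin, and polyadenylated RNA was sequenced. Whether the replicates were separate cultures is not in the labels, so p-values measure only the spread between these libraries, which may be technical. The libraries held 40.5 and 41.7 M reads over the listed genes with MS177, 32.1 and 40.3 M with MS177-N2, and 36.5 and 35.3 M with DMSO.

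EZH2 is the enzyme within polycomb repressive complex 2 (PRC2) that methylates histone H3 and holds developmental genes silent. A degrader of the PROTAC kind binds its target with one end and a ubiquitin ligase with the other, so that the target protein is destroyed and its transcript is not the direct target. FOXM1 is a transcription factor that drives genes of mitosis. ATF4 is the transcription factor of the integrated stress response, which raises genes of amino acid supply when translation initiation is checked. A negative control compound shows which transcript changes occur without the full activity of the active compound. Which part of MS177 the control MS177-N2 retains was not tested. The comparison therefore asked which MS177 changes MS177-N2 shares and which it lacks.

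Levels are normalized counts, in which 1 count is close to 1 read, with both tables brought to a common scale through their shared DMSO libraries. Differences are log2 differences on log2(normalized count + 1), ± SE, from limma with Benjamini-Hochberg adjusted p-values over the 16386 genes tested. Levels of a single gene are given in replicate order, and summed levels of a gene list with the lower library of each group first. A gene is called where its adjusted p is under 0.05. In cells in bulk, fewer cells of a state and less RNA per cell cannot be told apart.

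Transcripts of EZH2 (chr7:148807383-148884291, GRCh38) stood at 3799 and 3614 with MS177, 2983 and 2799 with MS177-N2 and 2899.6 and 3051 with DMSO. Both MS177 libraries lay above the other 4. The difference between MS177 and MS177-N2 was 0.36 ± 0.11 (adjusted p = 0.0421, limma), and this call held in 7 of 18 alternative analyses. Leaving out any 1 library ended it (adjusted p = 0.0853 to 0.157). Against DMSO the difference of MS177 was 0.32 (adjusted p = 0.0727), and that of MS177-N2 was -0.042 (95% interval -0.30 to 0.22). A transcript level does not check a degrader of the protein. Of the 12 PRC2 subunits tested, 1 was higher and 2 lower with MS177 than with MS177-N2. Over all tested genes 17.0% were higher and 18.2% lower in that comparison. The lower ones were PHF19, an accessory subunit (-0.47 ± 0.13), and the histone-binding subunit RBBP4 (-0.44 ± 0.13), with adjusted p of 0.0244 and 0.0329 (limma). Both calls were lost without MS177-N2 replicate 1 (adjusted p = 0.0605 and 0.182) or MS177-N2 replicate 2 (0.127 and 0.0607), PHF19 also without MS177 replicate 1 (0.107), and RBBP4 also without MS177 replicate 2 (0.166) or either DMSO replicate (0.0562 and 0.0564). The core subunits SUZ12 and EED and the paralogue EZH1 differed between MS177 and MS177-N2 by 0.10, 0.056 and 0.21, with 95% intervals of -0.21 to 0.41, -0.28 to 0.39 and -0.16 to 0.58.

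FOXM1 (chr12:2857680-2877174) had 6809 and 5804 with MS177, against 11605 and 11331 with MS177-N2 and 9649 and 10455 with DMSO. The MS177 libraries were the lowest and did not overlap either group. FOXM1 differed by -0.87 ± 0.13 between MS177 and MS177-N2 (adjusted p = 0.00208, limma), whereas MS177-N2 differed from DMSO by 0.19 (95% interval -0.10 to 0.48). The proto-oncogene MYC ran the other way, with 9218 and 8464 with MS177, 3237 and 3842 with MS177-N2 and 3685 and 3883 with DMSO. Its MS177 level was 2.50 times that with MS177-N2 (difference 1.32 ± 0.13, adjusted p = 0.000441, limma), and the MS177-N2 and DMSO libraries overlapped. CRBN, the cereblon ubiquitin ligase subunit that many degraders recruit, had 1537 and 1747 with MS177, 1264 and 1226 with MS177-N2 and 1528 and 1462 with DMSO. Its difference of 0.40 ± 0.12 between MS177 and MS177-N2 (adjusted p = 0.0406, limma) held in 8 of 18 alternative analyses. It was lost when any library but MS177 replicate 1 was left out (adjusted p = 0.0769 to 0.238), and both MS177 libraries lay above both DMSO libraries without a call (adjusted p = 0.462).

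BT-549 identity was checked against 10 mesenchymal markers, among them VIM, ZEB1 and CD44, and all 10 were among the tested genes. Their summed level was 202219.7 and 202954 with MS177, 244021 and 257834 with MS177-N2 and 237101 and 252812 with DMSO. Of 14 luminal markers, ESR1, PGR, TFF1, TFF3, SPDEF and EPCAM were not among the tested genes, nor were 7 of 10 immune and 6 of 7 endothelial markers. The other 8 luminal markers, CDH1 and XBP1 among them, were present. Their summed level was 13477 and 15124 with MS177, 10420 and 10766 with MS177-N2 and 9606 and 10141 with DMSO. XBP1 made up most of the sum with MS177, at 10187 and 11711. It had 1846 and 1887 with MS177-N2 and 1933 and 1779.9 with DMSO. The higher sum with MS177 therefore does not describe the list, whose median difference between MS177 and MS177-N2 was -0.58. Of these 8, 1 was higher and 4 lower with MS177 than with MS177-N2, beside 17.0% and 18.2% of all tested genes. Replicates correlated at 0.986 with MS177, 0.988 with MS177-N2 and 0.986 with DMSO over the tested genes. The leading principal component held 57.0% of the variance and set the MS177 libraries apart from the other 4.

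MS177 and MS177-N2 differed at 5774 of 16386 genes (35.2%), 2784 higher and 2990 lower with MS177 (limma). MS177 differed from DMSO at 4631 genes (28.3%), 2126 higher and 2505 lower. MS177-N2 differed from DMSO at 81 genes (0.494%), 38 higher and 43 lower, and 2451 genes passed an unadjusted p of 0.05. A gene list below with 0 members called for MS177-N2 is therefore close to the share over all tested genes. Without MS177-N2 replicate 1 or 2 the count of 5774 was 2774 or 3352, and most counts for gene lists below were smaller too. Without DMSO replicate 1 or 2 the MS177 count against DMSO was 2814 or 2748. The MS177-N2 count of 81 was 2 without either MS177-N2 replicate and 32 without DMSO replicate 1. It was 339 without MS177 replicate 1, 343 without MS177 replicate 2 and 335 in a fit of the MS177-N2 and DMSO libraries alone.

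The 4631 MS177 changes were sorted by what MS177-N2 did at the same gene. The control lacked 3664 of them, 79.1%: these genes were called for MS177 in the same direction against DMSO and against MS177-N2, and not for MS177-N2 against DMSO. Of these, 1650 were higher and 2014 lower with MS177. Lacked means not called, and the unadjusted p needed for a call was smaller for MS177-N2. Against DMSO, 81 of 2451 genes under an unadjusted p of 0.05 were called for MS177-N2, and 4631 of 6708 for MS177 (limma). In some lacked genes the 95% interval of MS177-N2 lay wholly above or below DMSO, such as ALDH1L2 (0.43 to 1.39) and E2F2 (-0.82 to -0.23). That of FOXM1 (-0.10 to 0.48) spanned DMSO. The control shared 65, which are 1.40% of the MS177 changes and 80.2% of its own 81 changes, 31 higher and 34 lower than DMSO with both compounds. A further 6 were called in opposite directions. The remaining 896 were called for MS177 against DMSO only, so whether MS177-N2 shares or lacks them was not resolved with 2 libraries a group. Both comparisons with DMSO use the same DMSO libraries, so an odd value there moves a gene the same way in both. The number lacked was 2310 and 2427 without MS177-N2 replicate 1 and 2, and 2224 without DMSO replicate 2. The number shared was 1 without either MS177-N2 replicate, 26 without DMSO replicate 1, and 146 or 172 without MS177 replicate 1 or 2. Between called and not called the edge was narrow: HSPB6 and AL591806.2 were shared at adjusted p of 0.0477 and 0.0489, while PLAT and GLI1 missed at 0.0502.

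**Figure D1:**
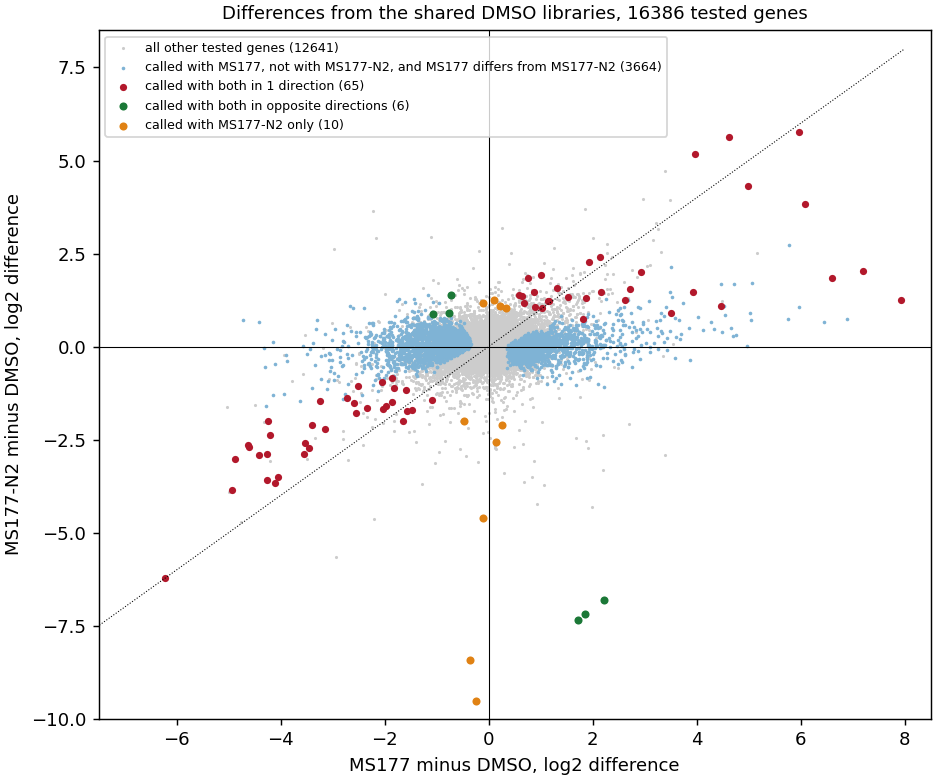
Each point is 1 of the 16386 tested genes, with the log2 difference of MS177 from DMSO on the horizontal axis and that of MS177-N2 from DMSO on the vertical axis; the dotted line marks equal differences and both axes share the DMSO libraries. The 3664 changes that the control lacked lie around the horizontal axis, the 65 shared ones lie in the lower left and upper right, and the 21 graded shared falls sit above the dotted line.

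The gene list with the highest median difference between MS177 and MS177-N2 was that of the integrated stress response. Of 30 tested ATF4 and stress-response genes, 26 were higher and 0 lower with MS177 than with MS177-N2, with a median difference of 1.69 (median of all tested genes 0.0026). Against DMSO 27 were higher with MS177, where 13.0% of all genes were, and 3 were higher with MS177-N2, where 0.232% of all genes were. Their summed level was 296391 and 313286 with MS177, 82919 and 83321 with MS177-N2 and 73693 and 76693 with DMSO. TRIB3, a pseudokinase induced by ATF4, had 21406 and 24122 with MS177, 1011 and 1129 with MS177-N2 and 916 and 832 with DMSO. MS177 left it 21.3-fold above MS177-N2 (4.41 ± 0.13, adjusted p = 5.9e-06, limma), and MS177-N2 differed from DMSO by 0.29 (95% interval -0.0064 to 0.59). ATF4 itself had 20249 and 24264 with MS177, 7928 and 9004 with MS177-N2 and 8665 and 7681 with DMSO. The pro-death transcription factor DDIT3 had 6729 and 8606 with MS177, 807 and 959 with MS177-N2 and 966 and 801 with DMSO. In both, the MS177-N2 and DMSO libraries overlapped and the MS177 libraries stood apart.

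Genes of amino acid supply and the transfer RNA synthetases were higher with MS177 as nearly the whole list. Of 35 tested, 33 were higher and 0 lower with MS177 than with MS177-N2 (median 1.30), and 33 were higher with MS177 than with DMSO. MS177-N2 was called against DMSO for 0 of the 35, where 0.494% of all tested genes were. Its difference from DMSO was positive in 28 and negative in 7 (median 0.15). The summed level was 458264 and 479505 with MS177, 175187 and 179128 with MS177-N2 and 154511 and 161308 with DMSO, without overlap. ASNS, which makes asparagine, had 13699.5 and 14078 with MS177, 1378 and 1321 with MS177-N2 and 1112 and 1030.3 with DMSO, a difference of 3.36 ± 0.11 between MS177 and MS177-N2 (adjusted p = 1.3e-05, limma). CBS, of the transsulfuration route from methionine to cysteine, had 5595 and 5733 with MS177, 984 and 1117 with MS177-N2 and 992 and 969.98 with DMSO. ALDH1L2, a folate enzyme of mitochondria, had 2397 and 1693 with MS177, 435 and 330.4 with MS177-N2 and 194 and 208 with DMSO. In ASNS and ALDH1L2 both MS177-N2 libraries also lay above both DMSO libraries, but MS177-N2 was not called (adjusted p = 0.292 and 0.166).

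The promoters of the stress genes bear on this group, since ATF4 is known to bind with C/EBP partners at an element that begins TGATGNAA. That motif was searched on both strands in RefSeq promoter windows (GRCh38.p14), from 250 bases before to 50 after the annotated start. It occurred in 11 of 27 windows of the amino acid and synthetase list (40.7%) and in 2 of 23 windows of the ATF4 list (8.70%). It occurred in 1.72% of the 11172 windows of tested genes and in 3.67% of all 27303 windows. The 4 windows printed here are those of the genes with a match and the largest differences between MS177 and MS177-N2, shown to set the motif beside its gene. Capitals mark the motif, read 5′ to 3′ along the gene, and the first base of the match is given with the start site as position 1. ATF3 (chr1:212565157-212565456, plus strand; position -191) and CHAC1 (chr15:40953221-40953520, plus strand; position -209) belong to the ATF4 list, and ASNS (chr7:97872359-97872658, minus strand; position -68) and MARS1 (chr12:57487818-57488117, plus strand; position -4) to the amino acid list.
ATF3: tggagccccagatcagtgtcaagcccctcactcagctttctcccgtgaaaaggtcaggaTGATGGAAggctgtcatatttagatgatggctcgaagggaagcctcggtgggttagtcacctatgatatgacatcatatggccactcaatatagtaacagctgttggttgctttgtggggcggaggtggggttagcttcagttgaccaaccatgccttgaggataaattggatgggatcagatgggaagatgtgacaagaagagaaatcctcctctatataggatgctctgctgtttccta
CHAC1: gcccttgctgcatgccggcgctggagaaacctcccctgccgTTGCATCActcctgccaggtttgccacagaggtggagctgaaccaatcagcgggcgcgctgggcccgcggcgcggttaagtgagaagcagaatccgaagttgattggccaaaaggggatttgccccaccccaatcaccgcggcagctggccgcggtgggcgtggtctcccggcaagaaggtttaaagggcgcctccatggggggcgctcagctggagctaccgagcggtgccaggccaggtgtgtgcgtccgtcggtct
ASNS: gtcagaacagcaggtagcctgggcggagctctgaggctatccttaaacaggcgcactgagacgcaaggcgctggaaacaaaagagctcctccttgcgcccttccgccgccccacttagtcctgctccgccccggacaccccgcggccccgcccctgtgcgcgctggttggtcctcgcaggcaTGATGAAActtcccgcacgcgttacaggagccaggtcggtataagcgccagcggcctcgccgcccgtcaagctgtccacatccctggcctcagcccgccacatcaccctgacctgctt
MARS1: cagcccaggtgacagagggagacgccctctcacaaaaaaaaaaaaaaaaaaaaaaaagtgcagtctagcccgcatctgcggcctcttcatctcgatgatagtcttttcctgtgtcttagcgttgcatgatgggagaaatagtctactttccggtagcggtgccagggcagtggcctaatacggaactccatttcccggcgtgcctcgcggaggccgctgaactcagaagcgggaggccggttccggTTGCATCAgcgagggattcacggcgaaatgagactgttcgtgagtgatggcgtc
ATF3, a stress-induced transcription factor, had 4086 and 3714 with MS177, 315 and 291 with MS177-N2 and 213 and 234 with DMSO. MARS1, the methionyl-transfer RNA synthetase, had 19491 and 18847 with MS177, 6103 and 6529.8 with MS177-N2 and 5151 and 5631 with DMSO. CHAC1, which degrades glutathione, was also higher with MS177-N2 than with DMSO and is described with the shared genes. A match is a description of these letters and not evidence of binding.

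**Figure D2:**
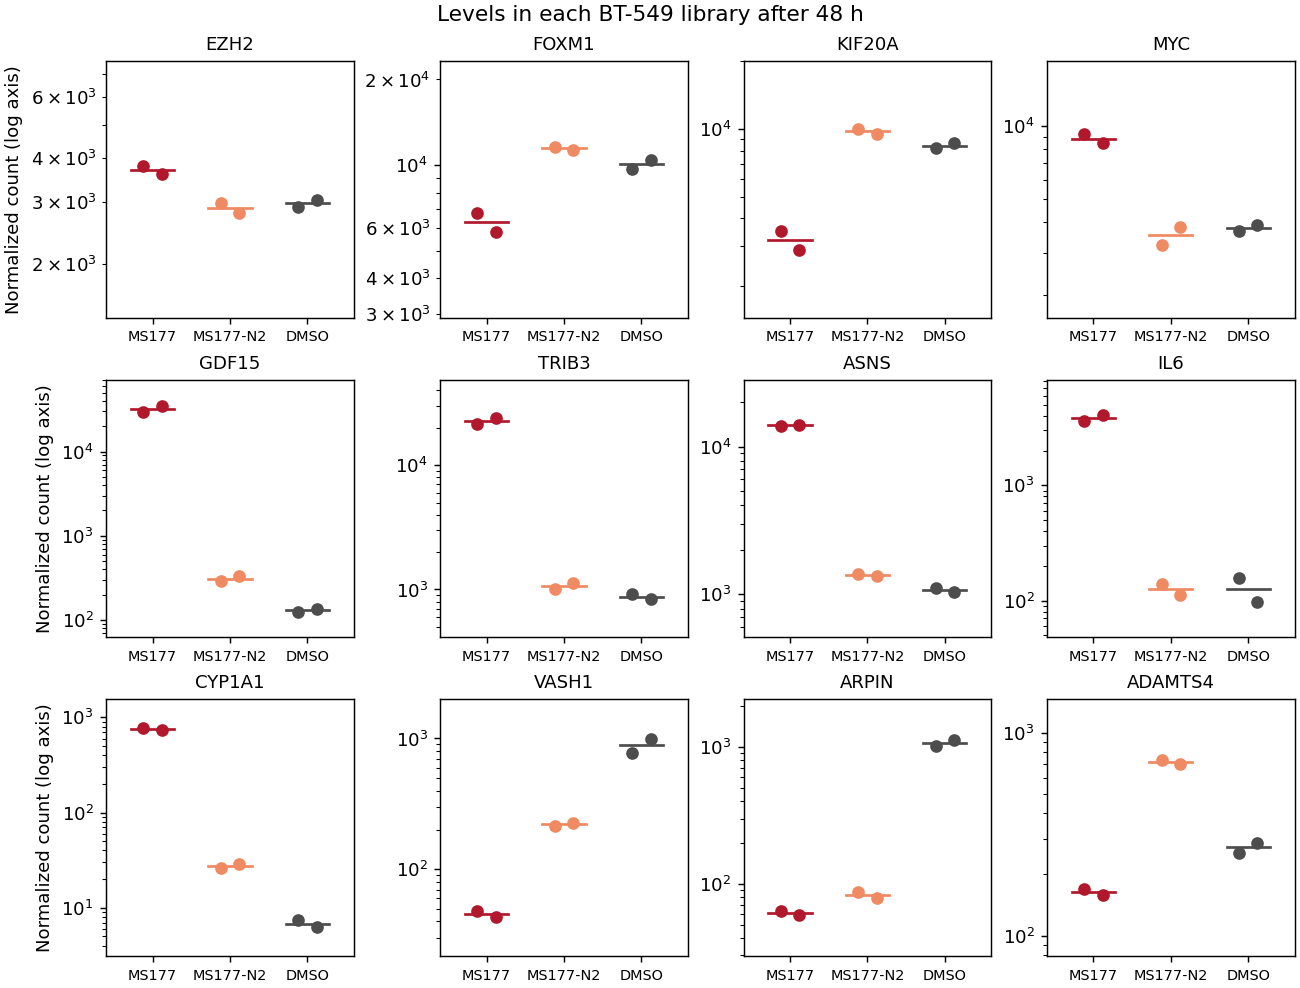
Normalized counts of 12 genes in each library (log axes, 1 panel a gene), with points for the 2 libraries of a group and a bar at their mean. FOXM1, KIF20A, MYC, TRIB3, ASNS and IL6 stand apart with MS177 while MS177-N2 stays near DMSO, whereas VASH1 and ARPIN are low with both compounds and ADAMTS4 is highest with MS177-N2.

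Of 30 chaperones and genes of the unfolded protein response in the endoplasmic reticulum, 7 were higher and 5 lower with MS177 than with MS177-N2 (2 and 1 lower without MS177-N2 replicate 1 and 2), and the median was -0.019. These shares are near those of all tested genes. Among the 5 lower members, MANF, a factor secreted under stress, had 3099 and 3733 with MS177, 5310.3 and 5890.3 with MS177-N2 and 7310.3 and 5688 with DMSO. Its MS177 libraries were the lowest, and it was chosen after its values were seen. Among the 7 higher ones, the transcription factor XBP1 had 10187 and 11711 with MS177, 1846 and 1887 with MS177-N2 and 1933 and 1779.9 with DMSO. The chaperone HSPA5 had 142568 and 151917 with MS177, 40792 and 39666 with MS177-N2 and 46722 and 41934 with DMSO. HERPUD1, of the machinery that degrades misfolded proteins, had 4763 and 4852 with MS177, 1514 and 1462 with MS177-N2 and 1362 and 1209 with DMSO. In each of these the MS177 libraries were the highest and MS177-N2 stayed close to DMSO, with differences of 0.0088, -0.14 and 0.21. Of 30 genes of p53 and growth arrest, 9 were higher and 8 lower, and the 8 were 4 and 5 without MS177-N2 replicate 1 and 2. GADD45A, a stress-induced growth arrest gene, differed between MS177 and MS177-N2 by 2.50 ± 0.15, the antiproliferative factor BTG1 by 2.22 ± 0.14 and the kinase PLK3 by 1.72 ± 0.16 (adjusted p = 8.4e-05, 8.5e-05 and 0.000394, limma). CDKN1A, the p53 target that blocks cyclin-dependent kinases, had 1661 and 1728 with MS177, 994 and 1054 with MS177-N2 and 1015 and 918 with DMSO. The p53 genes named here were all higher with MS177, but the list did not rise as a whole. Its differences between MS177 and MS177-N2 ran from -1.72 to 2.50, with a median of 0.13. Against DMSO they ran from -2.71 to 2.20 with MS177.

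Among 27 genes of the BCL2 family and the death receptors, 10 were higher and 3 lower with MS177 than with MS177-N2. PMAIP1, a BH3-only gene that promotes death at mitochondria, had 2597 and 2786 with MS177, 492 and 571 with MS177-N2 and 524 and 539.6 with DMSO. BBC3, of the same class, had 946 and 1030.1 with MS177, 284 and 375 with MS177-N2 and 252 and 209 with DMSO. The death receptor TNFRSF10B had 13533 and 12078 with MS177, 4131 and 4038 with MS177-N2 and 3737 and 4129 with DMSO. All 3 stood above MS177-N2 in both MS177 libraries, and in BBC3 both MS177-N2 libraries also lay above both DMSO libraries. MS177-N2 was called against DMSO for 0 of the 27, beside 0.494% of all tested genes. HRK, another BH3-only gene, had 103 and 121 with MS177, 16.9 and 9.20 with MS177-N2 and 3.17 and 0 with DMSO. HRK differed by 3.06 ± 0.68 between MS177 and MS177-N2 (adjusted p = 0.0118, limma), and the call was lost without either MS177-N2 replicate (adjusted p = 0.055 and 0.0873). Of 38 lysosome and autophagy genes, 14 were higher and 3 lower. Without MS177-N2 replicate 1 and 2 these were 8 and 9 higher, and 1 lower in either case. LAMP3, a lysosomal membrane protein, had 1406 and 1072 with MS177, 19.2 and 13.8 with MS177-N2 and 8.45 and 10.4 with DMSO. MAP1LC3B, of the autophagosome, had 15334 and 14977 with MS177, 4576 and 4489.7 with MS177-N2 and 4934 and 4572 with DMSO. TFEB, the transcription factor of lysosome genes, was lower with MS177 than with MS177-N2 (-1.86 ± 0.23, adjusted p = 0.0012, limma).

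Most genes of mitosis were lower with MS177. Of 50 FOXM1 and G2/M genes, 0 were higher and 32 lower with MS177 than with MS177-N2 (median -0.54). Against DMSO 38 were lower with MS177, beside 15.3% of all tested genes, and 0 were called for MS177-N2 (median -0.11). Of the 38, the control lacked 30 and 8 were not resolved, close to the share lacked over all MS177 changes (79.1%). The summed level was 260133 and 265713 with MS177, 369999 and 385396 with MS177-N2 and 393593 and 396689.98 with DMSO. Without MS177-N2 replicate 1 the count of 32 was 15. KIF20A, a kinesin of cytokinesis, had 3504 and 2888 with MS177, 10014 and 9475 with MS177-N2 and 8188 and 8657 with DMSO, a difference of -1.61 ± 0.13 between MS177 and MS177-N2 (adjusted p = 0.000219, limma). ASPM, a spindle pole protein, had 4943 and 3765 with MS177, 13117 and 8826 with MS177-N2 and 7628 and 9863 with DMSO. CENPI, a kinetochore protein, had 758 and 581 with MS177, 1672 and 1217 with MS177-N2 and 1063 and 1282 with DMSO. The call of CENPI between MS177 and MS177-N2 was lost without MS177-N2 replicate 1 (adjusted p = 0.0534). In all 3 the MS177 libraries were the lowest, and in KIF20A both MS177-N2 libraries lay above both DMSO libraries (difference 0.21, 95% interval -0.092 to 0.51).

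Promoters of mitotic genes are known for the cell cycle genes homology region, a short element TTTGAA or TTTAAA. One of these was found, on either strand, in 35 of 43 windows of the list (81.4%), beside 15.5% of the windows of tested genes and 24.3% of all windows. Matches of the motifs may overlap. The windows of the 3 list genes with a match and the largest differences are given, with capitals on the motif. They are KIF20A (chr5:138178862-138179161, plus strand; position -41), ASPM (chr1:197146620-197146919, minus strand; 2 matches) and KIF18B (chr17:44947724-44948023, minus strand; position 3).
KIF20A: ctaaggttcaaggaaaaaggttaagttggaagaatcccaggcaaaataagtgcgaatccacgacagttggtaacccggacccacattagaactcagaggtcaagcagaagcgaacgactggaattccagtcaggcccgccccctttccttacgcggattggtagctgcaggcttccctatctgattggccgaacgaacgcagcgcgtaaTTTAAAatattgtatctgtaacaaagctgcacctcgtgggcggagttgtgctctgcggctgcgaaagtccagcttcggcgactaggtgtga
ASPM: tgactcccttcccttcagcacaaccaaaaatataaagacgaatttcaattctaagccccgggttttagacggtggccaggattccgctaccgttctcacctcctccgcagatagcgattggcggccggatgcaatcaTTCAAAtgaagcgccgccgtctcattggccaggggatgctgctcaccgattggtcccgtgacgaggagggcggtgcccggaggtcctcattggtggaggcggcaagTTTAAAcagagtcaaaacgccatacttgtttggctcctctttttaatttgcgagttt
KIF18B: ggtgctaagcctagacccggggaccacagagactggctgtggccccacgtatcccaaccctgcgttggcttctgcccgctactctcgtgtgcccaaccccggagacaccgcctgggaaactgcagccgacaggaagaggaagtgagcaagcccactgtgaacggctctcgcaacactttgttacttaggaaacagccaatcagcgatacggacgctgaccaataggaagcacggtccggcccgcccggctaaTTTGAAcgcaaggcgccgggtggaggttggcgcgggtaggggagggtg
KIF18B, a kinesin of the mitotic spindle, had 1473 and 1173 with MS177, 2654 and 2711 with MS177-N2 and 2022 and 2458 with DMSO, so the MS177 libraries were the lowest here too.

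Genes of S phase and E2F moved less evenly. Of 43 tested, 3 were higher and 14 lower with MS177 than with MS177-N2 (median -0.22), and 0 were called for MS177-N2 against DMSO. The count of 14 was 5 and 7 without MS177-N2 replicate 1 and 2, and 9 without MS177 replicate 2. The 3 higher ones were at 0 without MS177 replicate 2 or either MS177-N2 replicate, and at 1 without either DMSO replicate. The repressor E2F8 had 267 and 211 with MS177, 561 and 470.2 with MS177-N2 and 354 and 435 with DMSO, and its difference between MS177 and MS177-N2 was -1.11 ± 0.19 (adjusted p = 0.0039, limma). The activator E2F2 had 515 and 549 with MS177, 966 and 1005 with MS177-N2 and 1339 and 1505 with DMSO. Here both MS177-N2 libraries lay below both DMSO libraries, between DMSO and MS177, but the difference of -0.53 was not called (adjusted p = 0.191). Among 29 replication-dependent histone genes, 7 were higher and 0 lower with MS177 than with MS177-N2 in these polyadenylated libraries, and the 7 were 4 without MS177-N2 replicate 1. H2AC6 had 2776 and 3187 with MS177, 1229 and 1228 with MS177-N2 and 1566 and 1302 with DMSO. H1-2 had 869 and 1066 with MS177, 334 and 487 with MS177-N2 and 656 and 476 with DMSO. H1-2 was lost without MS177-N2 replicate 1 (adjusted p = 0.0526).

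Most genes of MYC and ribosome biogenesis were higher with MS177. Of 42 tested, 28 were higher and 0 lower with MS177 than with MS177-N2 (median 0.62), 28 were higher than DMSO, and 0 were called for MS177-N2. PNO1, which helps assemble the small ribosomal subunit, had 2509.6 and 2596 with MS177, 971 and 1133 with MS177-N2 and 1111 and 1169.6 with DMSO. RRP12, a ribosome export factor, had 6189 and 6374 with MS177, 2648 and 2898 with MS177-N2 and 2418 and 2657 with DMSO. The MS177 libraries did not overlap the other groups in either. Cytosolic ribosomal protein genes behaved otherwise. Of 40, MS177 stood higher than MS177-N2 at 21 (median 0.71), and 3 were called higher with MS177 than with DMSO (median 0.36), and the median of MS177-N2 minus DMSO was -0.32 with 0 called. Replicates differed in this group, with summed levels of 1892725 and 2634218 with MS177, 1210156 and 1528932 with MS177-N2 and 1494999 and 1927051 with DMSO, so that MS177 and DMSO overlapped. The count of 21 was 0 without MS177-N2 replicate 1, 7 without MS177-N2 replicate 2, 10 without MS177 replicate 2 and 36 without MS177 replicate 1. RPL9, of the large subunit, had 25154 and 38711 with MS177, 12614 and 15335 with MS177-N2 and 22992 and 16452 with DMSO, and its call was lost without MS177-N2 replicate 1 (adjusted p = 0.088). Reads of ribosomal protein genes can be shared with their processed pseudogenes.

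In lipid synthesis MS177 lay below DMSO and MS177-N2 above it in median, although MS177-N2 was called for 0 of these genes. Of 27 cholesterol genes, 0 were higher and 18 lower with MS177 than with MS177-N2 (median -0.73), 14 were lower with MS177 than with DMSO (median -0.52), and the median of MS177-N2 minus DMSO was 0.19. The summed level was 66639 and 70939 with MS177, 115069.8 and 120944 with MS177-N2 and 99769 and 103123 with DMSO. The groups did not overlap in this sum, which was lowest with MS177 and highest with MS177-N2. SREBF2, the transcription factor of these genes, is described with the genes called between the compounds alone.

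Of 22 fatty acid genes, 0 were higher and 12 lower with MS177 than with MS177-N2 (median -0.57), beside 6 lower than DMSO (median -0.25). Without MS177-N2 replicate 1 the count of 12 was 5. FADS2, a desaturase of polyunsaturated fatty acids, had 4671 and 4288 with MS177, 21779 and 23413 with MS177-N2 and 14215 and 13667 with DMSO. The desaturase SCD had 8157 and 6546 with MS177, 32059 and 24935 with MS177-N2 and 14820.1 and 15832 with DMSO. Their differences between MS177-N2 and DMSO were 0.70 (adjusted p = 0.0618) and 0.88 (adjusted p = 0.0965). ACACA, which commits acetyl-CoA to fatty acids, had 4428 and 2829.8 with MS177, 8530.4 and 6499 with MS177-N2 and 3578 and 5013 with DMSO. MS177 and DMSO overlapped here. Its difference between MS177 and MS177-N2 (-1.07 ± 0.25, adjusted p = 0.0148, limma) was lost without MS177-N2 replicate 1 (adjusted p = 0.125).

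Cytokine genes went both ways with MS177. Of 29 cytokine and NF-kB genes, 14 were higher and 6 lower with MS177 than with MS177-N2, and the kinase IKBKE, described with the shared falls, was the one called for MS177-N2 against DMSO. The cytokine IL6 had 3642 and 4079.7 with MS177, 139 and 112 with MS177-N2 and 155 and 96.7 with DMSO, and MS177-N2 overlapped DMSO. MS177 left IL6 30.8-fold above MS177-N2 (4.94 ± 0.23, adjusted p = 3.6e-05, limma). The granulocyte growth factor CSF3 had 274 and 359 with MS177, 12.4 and 20.2 with MS177-N2 and 16.9 and 24.95 with DMSO. The inflammatory cytokine IL1B had 116 and 113 with MS177, 16.9 and 11.04 with MS177-N2 and 11.6 and 9.36 with DMSO. Among 26 genes of the EGF receptor and its MAP kinase feedback, 14 were higher and 2 lower, and the 2 were 1 without either MS177-N2 replicate. IER3, an immediate early gene, had 14787 and 17480.4 with MS177, 1562 and 1828 with MS177-N2 and 2117 and 1642 with DMSO. The ERK phosphatase DUSP6 had 2704 and 2541 with MS177, 502 and 464 with MS177-N2 and 482 and 467 with DMSO. PHLDA1 had 16201 and 15300.2 with MS177, 3169 and 3107 with MS177-N2 and 2816 and 2783 with DMSO. In these 3 genes MS177-N2 lay at or near DMSO and MS177 stood above both groups.

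Against MS177-N2, 53.3% of interferon-stimulated genes were lower with MS177 and 13.3% higher, beside 18.2% and 17.0% of all tested genes. Of 30 tested, 4 were higher and 16 lower with MS177 than with MS177-N2 (median -0.70), and the 16 were 8 and 9 without MS177-N2 replicate 1 and 2. The 4 were 1 without either MS177-N2 replicate or MS177 replicate 2. IFIT1, which binds foreign RNA, had 40.2 and 43.6 with MS177, 193 and 185 with MS177-N2 and 218 and 145 with DMSO. The antiviral protein MX1 had 12.2 and 17.4 with MS177, 52.99 and 71.8 with MS177-N2 and 45.4 and 37.4 with DMSO. OAS2, a sensor of double-stranded RNA, had 1.87 and 1.94 with MS177, 30.4 and 12.9 with MS177-N2 and 13.7 and 11.4 with DMSO. MS177 lay lowest in all 3 and MS177-N2 overlapped DMSO in IFIT1 and OAS2. In OAS2 the MS177 libraries were under the floor of 3 reads, and its call was lost without MS177-N2 replicate 1 (adjusted p = 0.0625). Of 16 genes of MHC class I presentation, 0 were higher and 6 lower (2 were higher without MS177 replicate 1). The transactivator NLRC5 had 155 and 140.4 with MS177, 406 and 324 with MS177-N2 and 299 and 324 with DMSO. TAPBP, which loads peptide, had 3919 and 3438 with MS177, 8476 and 7717 with MS177-N2 and 7366 and 8113 with DMSO. Neither list had a gene called for MS177-N2 against DMSO, where 0.494% of all tested genes were.

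Genes that polycomb is known to mark were more often lower than higher with MS177. Of 56 tested developmental transcription factors, 5 were higher and 29 lower with MS177 than with MS177-N2 (median -0.70). Of 27 HOX genes, 2 were higher and 13 lower (median -0.59). The 5 higher factors were 3 without MS177 replicate 2 or MS177-N2 replicate 1 and 2 without MS177-N2 replicate 2, and the 2 higher HOX genes were 1 without any of these libraries. SOX8, a factor of the neural crest, had 47.7 and 64.9 with MS177, 542 and 561 with MS177-N2 and 738 and 548 with DMSO. DLX3, a homeobox factor of skin and bone, had 8.41 and 14.5 with MS177, 93.6 and 62.6 with MS177-N2 and 65.5 and 50.9 with DMSO. LHX9, a factor of gonad development, had 32.7 and 22.3 with MS177, 125 and 101 with MS177-N2 and 120.4 and 93.6 with DMSO. The MS177-N2 and DMSO libraries overlapped in these, and MS177 lay below them. HOXC10 had 670.2 and 599 with MS177, 1992 and 1965 with MS177-N2 and 1748 and 1489 with DMSO. HOXB9 ran against its list, with 63.6 and 64.9 with MS177, 20.3 and 20.2 with MS177-N2 and 28.5 and 29.1 with DMSO, a difference of 1.62 ± 0.26 between MS177 and MS177-N2 (adjusted p = 0.0031, limma). A further 29 listed developmental factors and 10 HOX genes were not among the tested genes.

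Of 51 matrix and mesenchymal genes, 8 were higher and 19 lower with MS177 than with MS177-N2, and the 19 were 9 without MS177-N2 replicate 1. Of the matrix list 15.7% were higher and 37.3% lower, beside 17.0% and 18.2% of all tested genes. CSPG4, a membrane proteoglycan, had 617 and 429.8 with MS177, 3465 and 2981 with MS177-N2 and 3865 and 4464 with DMSO. SNAI1, a repressor of epithelial genes, had 74.8 and 56.2 with MS177, 271 and 244 with MS177-N2 and 209 and 237 with DMSO. MS177 lay below both groups in CSPG4 and SNAI1. Of 21 keratins and epithelial genes, 8 were higher and 7 lower. The tight junction protein OCLN had 956 and 886 with MS177, 112 and 81.9 with MS177-N2 and 109 and 134 with DMSO. The adhesion molecule CDH1 had 136 and 133 with MS177, 743 and 589.9 with MS177-N2 and 606 and 677 with DMSO. KRT15, a basal keratin, had 10.3 and 11.6 with MS177, 73.3 and 100.3 with MS177-N2 and 103 and 76.9 with DMSO. MS177 stood above both other groups in OCLN and below both in CDH1 and KRT15. Of the 10 identity markers, 1 was higher and 2 lower with MS177 than with MS177-N2, and 8 differences were negative and 2 positive. SPARC was lower (-0.98 ± 0.12) and AXL higher (0.82 ± 0.16), with adjusted p of 0.00102 and 0.00649 (limma), and TWIST1 was the other lower one. The call of AXL was lost without MS177-N2 replicate 1 and that of TWIST1 without MS177-N2 replicate 2.

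Of 25 NRF2 genes, 9 were higher and 3 lower with MS177 than with MS177-N2, and the 9 were 5 without MS177-N2 replicate 1. HMOX1, which breaks down heme, had 39512 and 39709.5 with MS177, 12051 and 14073 with MS177-N2 and 10217 and 10218 with DMSO. SLC7A11, the cystine importer, had 5267 and 4407 with MS177, 1380.01 and 959 with MS177-N2 and 795 and 884 with DMSO. MS177 stood highest in both genes, and both MS177-N2 libraries lay above both DMSO libraries. Of 22 heat shock genes, 4 were higher and 7 lower, and the 7 were 4 without MS177-N2 replicate 1. The 4 higher ones were 1 or 2 when any library was left out. Of the heat shock list 18.2% were higher and 31.8% lower, beside 17.0% and 18.2% of all tested genes. The chaperone HSPA1A had 7261 and 7779 with MS177, 17427 and 19689.8 with MS177-N2 and 17290.00 and 16958 with DMSO. Its near-identical copy HSPA1B had 8429.8 and 7771 with MS177, 17102 and 20040.4 with MS177-N2 and 15399 and 15305 with DMSO. MS177 stood lowest in both, whose reads cannot be assigned with certainty. Of 34 genes of glycolysis and hypoxia, 7 were higher and 8 lower, near the share of all tested genes. The 8 were 5 without either MS177-N2 replicate or MS177 replicate 1. VEGFA, the endothelial growth factor, had 4514 and 3847 with MS177, 959 and 1084 with MS177-N2 and 926 and 1066 with DMSO. TXNIP, which limits glucose uptake, had 828 and 835 with MS177, 191 and 176 with MS177-N2 and 214 and 235 with DMSO. In both MS177 stood above the other 4 libraries. Of 14 cereblon and VHL ligase genes, 4 were higher and 0 lower, and the 4 were 1 without MS177 replicate 2 or MS177-N2 replicate 1 and 2 without MS177-N2 replicate 2. The ligase subunit VHL had 12948 and 16172 with MS177, 6287 and 6199 with MS177-N2 and 7579.6 and 6598 with DMSO. Of 31 proteasome genes, 2 were higher and 3 lower. No call of the 3 held when any library was left out, and the 2 were 0 without MS177 replicate 2 or either MS177-N2 replicate and 12 without MS177 replicate 1.

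Most mitochondrially encoded transcripts were lower with MS177. Of 13, 0 were higher and 12 lower with MS177 than with MS177-N2 (median -0.77), and 0 were called for MS177-N2. The count of 12 was 4 and 6 without MS177-N2 replicate 1 and 2. Their summed level was 386825 and 463572 with MS177, 694376 and 741014 with MS177-N2 and 649144 and 703826 with DMSO. MT-ND2, a subunit of respiratory complex I, had 19212 and 15835 with MS177, 40797 and 37129.7 with MS177-N2 and 41307 and 38506 with DMSO. MT-CYB, of complex III, had 37175 and 29307 with MS177, 70911 and 66441 with MS177-N2 and 58753 and 53642 with DMSO. The MS177 libraries lay below the other 4 in both. The part of this shift in the values of other genes was not tested.

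**Figure D3:**
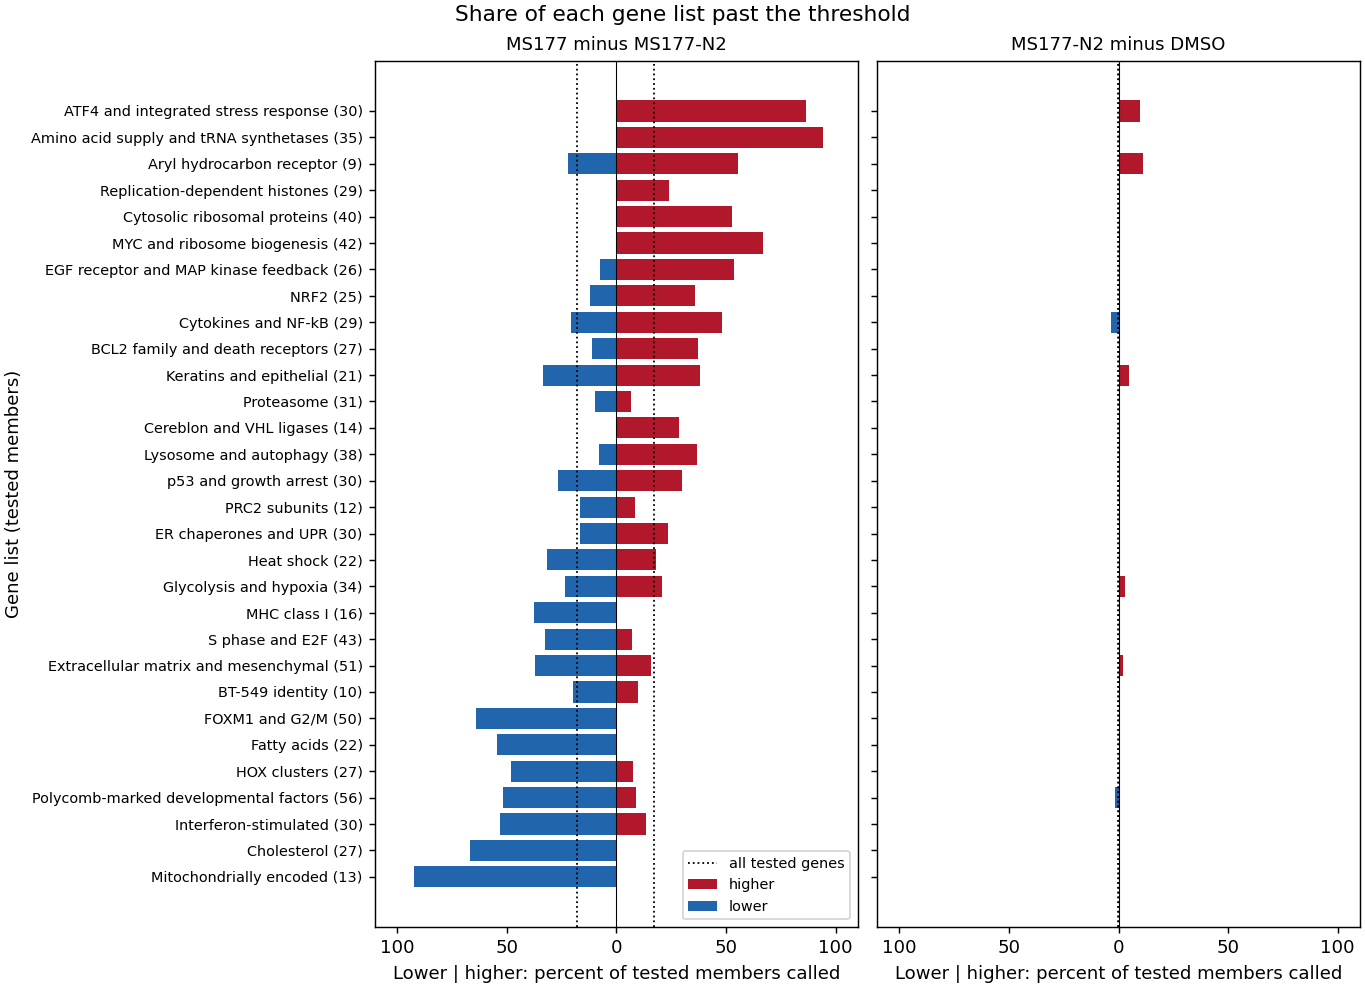
Percent of each gene list called higher (right, red) or lower (left, blue), for MS177 minus MS177-N2 in the left panel and MS177-N2 minus DMSO in the right panel; dotted lines mark the percent of all tested genes, and the number of tested members stands in brackets. In the left panel the amino acid and ATF4 lists reach furthest right and the mitochondrially encoded and cholesterol lists furthest left, while in the right panel most lists have no called member.

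Of the transcripts with reads in every library, the largest excess of MS177 over MS177-N2 was that of GDF15 (chr19:18386158-18389176), the stress-induced cytokine described below with the shared genes. KLHDC7B, a kelch-domain protein, had 2240.4 and 1873 with MS177, 29.3 and 44.2 with MS177-N2 and 23.2 and 21.8 with DMSO. HKDC1, a hexokinase-like enzyme, had 987 and 848 with MS177, 29.3 and 25.8 with MS177-N2 and 11.6 and 21.8 with DMSO. Their differences between MS177 and MS177-N2, with that of LAMP3, lay between 5.01 and 6.15. Of the largest deficits, BOC, a receptor component of hedgehog signalling, had 40.2 and 23.2 with MS177, 702 and 537 with MS177-N2 and 594 and 529 with DMSO. VAV3, a guanine nucleotide exchange factor, had 161 and 153 with MS177, 1796 and 1471 with MS177-N2 and 1724 and 1669.7 with DMSO. CA4, a carbonic anhydrase, had 105 and 122 with MS177, 853 and 862 with MS177-N2 and 912 and 676 with DMSO. These 3 differed by -4.28 ± 0.27, -3.37 ± 0.14 and -2.91 ± 0.18 (adjusted p = 8.5e-05, 2.0e-05 and 8.3e-05, limma), and the MS177-N2 and DMSO libraries overlapped in each. PRUNE2, which is most abundant in nerve tissue, had 277 and 146 with MS177, 2093 and 1234 with MS177-N2 and 583 and 758 with DMSO. Its MS177-N2 libraries lay above both DMSO libraries without a call (adjusted p = 0.231).

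Both compounds lowered 34 genes against DMSO. ARPIN (chr15:89895006-89912952), an inhibitor of the Arp2/3 complex, had 62.6 and 59.1 with MS177, 86.8 and 79.1 with MS177-N2 and 1013 and 1123 with DMSO. It fell 17.5-fold with MS177 and 12.9-fold with MS177-N2 against DMSO, differences of -4.11 ± 0.16 and -3.67 ± 0.16 (adjusted p = 1.1e-05 and 0.00022, limma), and the compounds differed by -0.44 (95% interval -0.82 to -0.062). Some ARPIN reads may belong to a readthrough transcript annotated across it. SNPH, which anchors mitochondria in axons, had 7.48 and 6.78 with MS177, 14.7 and 17.5 with MS177-N2 and 237 and 256 with DMSO. ABHD6, a lipid hydrolase, had 14.95 and 22.3 with MS177, 41.7 and 57.1 with MS177-N2 and 366 and 370.1 with DMSO. SLC45A1, a sugar transporter, had 5.61 and 3.87 with MS177, 16.9 and 22.1 with MS177-N2 and 167 and 163 with DMSO. In these 3 genes MS177-N2 stood between MS177 and DMSO without overlap. SYTL4, of granule exocytosis, had 6.54 and 4.84 with MS177, 20.3 and 15.6 with MS177-N2 and 139 and 142 with DMSO. The potassium channel KCNH3 had 13.1 and 27.1 with MS177, 31.6 and 29.4 with MS177-N2 and 257 and 212 with DMSO. In all 6 genes every MS177 and MS177-N2 library lay below both DMSO libraries. Between MS177 and MS177-N2, the call of SNPH was lost without any library but MS177 replicate 1 (adjusted p = 0.0533 to 0.0846), that of ABHD6 without MS177-N2 replicate 2 (0.0561) and that of SYTL4 without MS177-N2 replicate 1 (0.0653). Apart from ARPIN, these calls against DMSO for MS177-N2 were lost without either MS177-N2 replicate, where the lone library is assumed to vary like the other groups.

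Most shared falls were graded: 21 of the 34 were also called between MS177 and MS177-N2, each lower with MS177. Over the 34 genes the median level was 0.109 of DMSO with MS177 and 0.247 of DMSO with MS177-N2. These medians describe genes chosen by those very differences. VASH1, an angiogenesis inhibitor with tubulin carboxypeptidase activity, had 47.7 and 43.6 with MS177, 214 and 226 with MS177-N2 and 777 and 998 with DMSO. The kinase IKBKE had 20.6 and 13.6 with MS177, 66.5 and 72.7 with MS177-N2 and 398 and 483 with DMSO. MMP15, a membrane-type metalloproteinase, had 85.1 and 73.6 with MS177, 199.6 and 189.6 with MS177-N2 and 820.5 and 858 with DMSO. In each of these 3 genes the groups did not overlap and MS177-N2 stood between MS177 and DMSO. VASH1 differed by -2.25 ± 0.18 between MS177 and MS177-N2, IKBKE by -1.99 ± 0.25 and MMP15 by -1.29 ± 0.15 (adjusted p = 0.000203, 0.00125 and 0.000972, limma). PGM1, of glycogen metabolism, had 646 and 671 with MS177, 1052 and 1082 with MS177-N2 and 3495 and 3177 with DMSO. TK2, the thymidine kinase of mitochondria, had 102 and 73.6 with MS177, 143 and 195 with MS177-N2 and 1008 and 1006 with DMSO. MVP, the major vault protein, had 2124 and 2233 with MS177, 2620.2 and 2993 with MS177-N2 and 8093 and 7707 with DMSO, with both compounds well apart from DMSO. No library of either compound reached DMSO in these 3 genes. NKX2-5, a developmental factor of the heart and the only member of the polycomb-marked list that was shared, had 85.99 and 106 with MS177, 71.03 and 79.1 with MS177-N2 and 349.5 and 261 with DMSO, and MS177 and MS177-N2 differed by 0.34 (95% interval -0.16 to 0.84).

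Of the 31 shared rises, 13 were graded, 5 were called higher with MS177-N2 than with MS177, and 13 were not called between the compounds. GDF15 had 29036 and 35086 with MS177, 292 and 330.4 with MS177-N2 and 127 and 134 with DMSO. MS177 raised it 246-fold and MS177-N2 2.39-fold against DMSO, differences of 7.92 ± 0.14 and 1.25 ± 0.14 (adjusted p = 5.0e-07 and 0.0149, limma). INHBE, an activin subunit, had 965 and 849 with MS177, 21.4 and 26.7 with MS177-N2 and 6.34 and 4.16 with DMSO. CHAC1 had 2566 and 2705 with MS177, 245 and 257 with MS177-N2 and 119 and 115 with DMSO. These are the 3 stress genes that MS177-N2 shared, and in each the MS177-N2 level lay nearer to DMSO than to MS177. CYP1A1, the detoxifying enzyme induced by the aryl hydrocarbon receptor, had 778 and 737 with MS177, 25.9 and 28.5 with MS177-N2 and 7.39 and 6.24 with DMSO. Its difference from DMSO was 6.60 ± 0.23 with MS177 and 1.86 ± 0.23 with MS177-N2 (adjusted p = 7.8e-06 and 0.0178, limma), from counts close to the floor in DMSO. Without either MS177-N2 replicate 0 genes were called higher with MS177-N2 than with DMSO. The MS177-N2 calls of GDF15, INHBE and CYP1A1 against DMSO then had adjusted p of 0.184 to 0.321, and GDF15 was also lost without DMSO replicate 1 (0.0673) and INHBE without DMSO replicate 2 (0.0511). Of 9 tested genes of that receptor, 5 were higher and 2 lower with MS177 than with MS177-N2 (0 lower without MS177-N2 replicate 1, 1 without MS177-N2 replicate 2 or MS177 replicate 2), and CYP1A1 was the one called for MS177-N2. The receptor gene AHR had 3849 and 3136 with MS177, 1865 and 1516 with MS177-N2 and 1628 and 1758 with DMSO.

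FLNC, an actin crosslinker, had 15659 and 10684 with MS177, 2320.3 and 2347 with MS177-N2 and 718 and 995 with DMSO. The protocadherin PCDH1 had 3831 and 3419 with MS177, 617 and 569.6 with MS177-N2 and 327 and 311 with DMSO. Each group stood apart from the others in both. HECW1, a ubiquitin ligase, had 1912 and 1432 with MS177, 786 and 694 with MS177-N2 and 212 and 298 with DMSO. PEAR1, a platelet receptor, had 191 and 133 with MS177, 80.05 and 85.6 with MS177-N2 and 20.1 and 19.8 with DMSO. All 4 were graded, with MS177-N2 between DMSO and MS177. The difference between MS177 and MS177-N2 was lost for PEAR1 without MS177 replicate 1 (adjusted p = 0.136) or either MS177-N2 replicate (0.115 and 0.0818), and for HECW1 without MS177-N2 replicate 2 (0.0501). APOE, the lipid carrier, and LAMB3, a laminin chain, were not called between the compounds. APOE had 527 and 817 with MS177, 777 and 902 with MS177-N2 and 225 and 132 with DMSO. LAMB3 had 274 and 241 with MS177, 253 and 287 with MS177-N2 and 122 and 106 with DMSO. The compounds differed in APOE by -0.35 (95% interval -1.02 to 0.32) and in LAMB3 by -0.067 (-0.46 to 0.33). The 5 rises called higher with MS177-N2 than with MS177 were ARSI, L1CAM, NPTXR, C3 and BCAM. The adhesion molecule L1CAM had 1753 and 1352 with MS177, 2993 and 2828 with MS177-N2 and 693 and 840.02 with DMSO. ARSI, a sulfatase, had 287 and 285 with MS177, 577 and 652 with MS177-N2 and 162 and 178 with DMSO. In both genes MS177 stood between MS177-N2 and DMSO. Complement C3 had 2231 and 1712 with MS177, 3527 and 2913 with MS177-N2 and 1232 and 1271 with DMSO. Among the rises, PDCD6-AHRR, CHURC1-FNTB and BMS1P4-AGAP5 are readthrough names that share reads with their parts, so they are uncertain.

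Levels of the shared genes in the other BT-549 libraries were looked up after the classes were known. The labels give these as cells treated with MS177-N1, the other negative control, or with C24, an inhibitor of the EZH2 methyltransferase, at the same dose and time. Of the 34 shared falls, both libraries lay below both DMSO libraries in 11 genes with MS177-N1 and in 2 with C24, where 15.4% and 23.2% of 16265 tested genes with a value in all 10 libraries did so. The median level of the falls was 0.956 of DMSO with MS177-N1 and 1.08 of DMSO with C24. Of 29 shared rises with a value in all 10 libraries, both libraries lay above both DMSO libraries in 20 genes with MS177-N1 and 16 with C24, where 14.5% and 21.2% of those tested genes did so. Over the 26 with reads in DMSO the median level was 1.32 and 1.27 of DMSO, beside 3.57 with MS177 and 2.58 with MS177-N2. All 4 sets of ratios use the DMSO libraries by which the genes were chosen, so nothing is read from these shares.

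**Figure D4:**
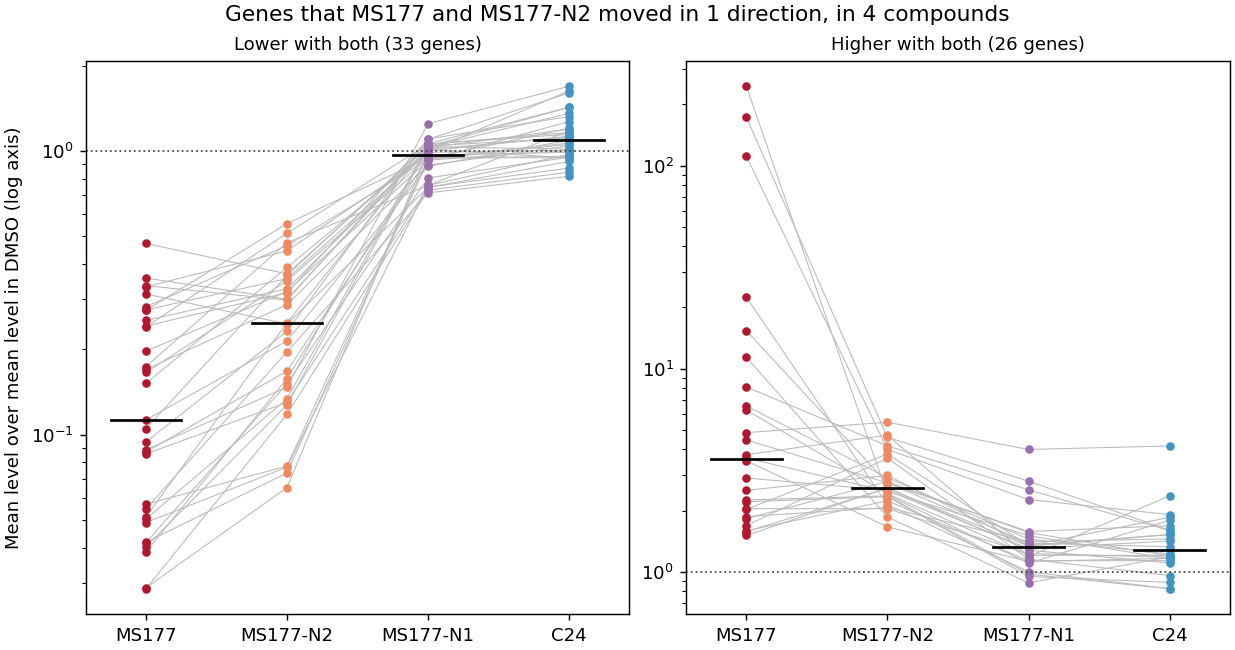
Mean level over the mean level in DMSO (log axis) for 33 shared falls (left) and 26 shared rises (right) with reads in every group, with a grey line for each gene, a point for each compound and a black bar at the median; the dotted line marks DMSO. The falls have medians of 0.113 with MS177, 0.248 with MS177-N2, 0.966 with MS177-N1 and 1.09 with C24.

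A few genes went opposite ways. ADAMTS4, an aggrecanase, had 170.1 and 159 with MS177, 731 and 703 with MS177-N2 and 257 and 287 with DMSO. The glycolytic enzyme ALDOC had 321 and 316 with MS177, 1174 and 1277 with MS177-N2 and 714 and 626 with DMSO. DUSP9, a MAP kinase phosphatase, had 389.8 and 439.5 with MS177, 1213 and 1405 with MS177-N2 and 693 and 707 with DMSO. In these 3 genes MS177 lay below DMSO and MS177-N2 above it, with no overlap. ADAMTS4 differed from DMSO by -0.72 ± 0.14 with MS177 and 1.40 ± 0.14 with MS177-N2 (adjusted p = 0.00891 and 0.0102, limma), and the MS177-N2 side was lost without either MS177-N2 replicate (adjusted p = 0.189 and 0.188) or DMSO replicate 1 (0.0561), and the MS177 side without DMSO replicate 2 (0.0675). The MS177-N2 side of ALDOC and of DUSP9 was lost without any 1 of the DMSO and MS177-N2 libraries (adjusted p = 0.152 to 0.4 for ALDOC and 0.146 to 0.4 for DUSP9).

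The other 3 opposite entries were copies of the 5.8S ribosomal RNA, listed as RNA5-8SN1, RNA5-8SN3 and 5_8S_rRNA. RNA5-8SN3 had 887 and 322 with MS177, 0 and 0 with MS177-N2 and 176 and 149 with DMSO, so no read was counted in either MS177-N2 library. Taking 3 reads per library as the floor, MS177 was at least 197-fold higher than MS177-N2. These near-identical copies share reads, and a ribosomal RNA without a tail is not what these libraries select, so the entries are uncertain. Their calls for MS177 against DMSO were lost without MS177 replicate 1, DMSO replicate 2 or either MS177-N2 replicate (for RNA5-8SN3, adjusted p = 0.137, 0.087 and 0.0567), and that of RNA5-8SN3 also without DMSO replicate 1 (0.0553). Their calls for MS177-N2 against DMSO were lost without either MS177-N2 replicate (adjusted p = 0.100 to 0.154). The unnamed transcripts AL671762.1 and AC011511.4 were likewise at 0 in both MS177-N2 libraries. AL671762.1 had 608 and 643 with MS177, 0 and 0 with MS177-N2 and 907 and 603 with DMSO, at least 204-fold higher with MS177 than with MS177-N2. AC011511.4 had 137 and 521 with MS177, 0 and 0 with MS177-N2 and 891 and 132 with DMSO. MS177 and DMSO overlapped in both transcripts. Why no read was counted with MS177-N2 was not tested, so the entries of these transcripts are uncertain too.

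MS177-N2 alone differed from DMSO at 10 genes, 4 higher and 6 lower, at which MS177 also differed from MS177-N2. EFNB3, an ephrin, had 872 and 726 with MS177, 1790.4 and 1737 with MS177-N2 and 709.6 and 770.4 with DMSO. The collagen COL1A1 had 13197 and 10778 with MS177, 20579.6 and 18540.4 with MS177-N2 and 8608 and 10361 with DMSO. The matrix proteoglycan BGN had 1029 and 976 with MS177, 2099 and 1607 with MS177-N2 and 883 and 844 with DMSO. In these 3 genes both MS177-N2 libraries stood above the other 4, and EFNB3 differed from DMSO by 1.25 ± 0.14 with MS177-N2 and by 0.11 with MS177 (adjusted p = 0.0133 and 0.608, limma). The MS177-N2 call of EFNB3 against DMSO was lost without DMSO replicate 1 (adjusted p = 0.0673) or either MS177-N2 replicate (0.251 and 0.225). Those of BGN and COL1A1 were lost without any 1 of the DMSO and MS177-N2 libraries (adjusted p = 0.11 to 0.283 for BGN and 0.0509 to 0.462 for COL1A1). COL1A1 between MS177 and MS177-N2 was lost without MS177-N2 replicate 1 (adjusted p = 0.0857). LPIN3, a phosphatidate phosphatase, completed the rises with 288 and 237 with MS177, 645 and 631 with MS177-N2 and 248 and 320.2 with DMSO. SDSL, a serine dehydratase-like enzyme, was lower with MS177-N2, with 142 and 205 with MS177, 50.7 and 69.02 with MS177-N2 and 272 and 209 with DMSO. The MS177-N2 calls of LPIN3 and SDSL against DMSO were likewise lost without DMSO replicate 1 or either MS177-N2 replicate (adjusted p = 0.0861 to 0.456).

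Another 2055 of the 16386 tested genes, 1112 higher and 943 lower with MS177, were called between MS177 and MS177-N2 and with neither compound against DMSO. They include 18 of 40 ribosomal protein genes, 4 of 27 cholesterol genes and 6 of 22 fatty acid genes. The cholesterol share is close to that over all tested genes. In these groups MS177-N2 lay in median on the other side of DMSO from MS177, without a call. FASN, fatty acid synthase, is among the 2055, with 13539 and 10363 with MS177, 21902 and 21298 with MS177-N2 and 12173 and 16124 with DMSO. SREBF2, the transcription factor of cholesterol genes, had 4729 and 4068 with MS177, 7684 and 7692 with MS177-N2 and 5258 and 6034 with DMSO. In both genes MS177-N2 stood highest, and its difference from DMSO was 0.62 (95% interval 0.20 to 1.04) in FASN and 0.45 (0.15 to 0.75) in SREBF2. Genes listed in 1 table only, 558 with MS177 and 291 with MS177-N2, were not compared.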

How the data were processed

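RNA labelled as polyadenylated was extracted with a Qiagen RNeasy kit and made into libraries with NEBNext Ultra II reagents, per the labels' protocols. RSEM, DESeq and hg38 were used, per the submitters' processing notes; versions are not given in the sources used here. The authors deposited log2-scale normalized expression in 1 table per compound with DMSO. Each listed gene has at least 10 reads in 1 or more of its table's libraries. These values were taken as variance-stabilised. They were turned back to normalized counts as q = (2^v - 2 m)2/2^v, where v is the deposited value and m the table's lowest value (5.67 with MS177, 5.61 with MS177-N2). Every checked value (100% of genes up to 1000 reads, tolerance 0.05) was then a whole number of reads times 1 step per library. The DMSO reads were the same in both tables at 100% of 16547 shared genes, and the MS177-N2 table was multiplied by 1.037. No deposited column of these tables was left unmapped.

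Genes reaching 10 normalized counts in 2 or more of the 6 libraries were fitted as log2(normalized count + 1) with limma 3.58.1 in R 4.3.3 (mean trend, robust, 3 residual degrees of freedom, all 6 libraries in 1 fit). The pseudocount understates the change of low genes. The fit was tested on simulated data. A change was shared where both compounds were called against DMSO in 1 direction, and lacked where MS177 was called against DMSO and MS177-N2 and MS177-N2 was not called against DMSO. The members, the 33 gene lists and the classes were chosen with earlier results of these data known. Named genes were EZH2, EZH1, EED, SUZ12, FOXM1, MYC and CRBN, and others taken by size of the difference. With a mean of at least 100 normalized counts these were the 12 largest rises, the 12 largest falls and 6 shared genes in each direction. The same minimum held for 4 opposite and 4 control-only genes in each direction. The 3 leading called members and 2 leading shared members of each list were taken without that minimum. Other genes were chosen after their values were seen. Some genes that the rule names are not reported here. Alternatives changed the libraries, scaling, filter, pseudocount, model or replicate block, or left out each library. Promoters came from RefSeq.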

Additional observations from a re-analysis of the deposited data

How the results depend on the processing

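When each library was left out in turn, the count of genes called between MS177 and MS177-N2 ranged from 2774 to 6132, that of MS177 against DMSO from 2748 to 4221, and that of MS177-N2 against DMSO from 2 to 343. The number of MS177 changes that the control lacked ranged from 2224 to 3519, and the number shared from 1 to 172. Among the other alternatives, a fit of the MS177-N2 and DMSO libraries alone called 335 genes for MS177-N2 against DMSO (193 higher and 142 lower), and limma without trend or robust variance called 31, with 26 changes shared. The cause was not tested. Other pseudocounts, filters and scalings, voom on whole reads, all 10 BT-549 libraries and the deposited log2 values kept these counts within 1.5 times of those reported. Scaling to library totals moved the median of all genes to -0.089 between MS177 and MS177-N2, -0.049 between MS177 and DMSO and 0.029 between MS177-N2 and DMSO, each on the other side of 0 from the reported scaling.

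The replicate numbers were not taken as pairs, since nothing in the labels ties them and same-numbered deviations correlated at 0.26 between MS177 and MS177-N2, -0.34 between MS177 and DMSO and -0.14 between MS177-N2 and DMSO. With the replicate block the counts were 4847 between MS177 and MS177-N2, 3720 for MS177 against DMSO and 50 for MS177-N2 against DMSO, with 41 changes shared.

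No called difference of a named gene changed its direction under any alternative. Of 138 named genes, 100 kept their side of the threshold between MS177 and MS177-N2 under every alternative run. With 2 libraries a group and 3 residual degrees of freedom, the list of shared genes rests on both MS177-N2 libraries together, and counts under 3 reads per library cannot be told from 0.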

Other observations

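Of the 558 genes listed with MS177 but not with MS177-N2, 23 averaged over 50 reads, and the highest mean was 207 reads. Of the 291 genes listed with MS177-N2 but not with MS177, 5 averaged over 50 reads, and the highest mean was 224 reads. These genes enter no comparison, since a gene was set between the compounds only where both tables list it.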
